A study of Mus musculus with 12 samples.

Results

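The comparison described here is of lithium-treated cells with and without induction of fat cell differentiation. It takes 6 of the 12 arrays of the series, chosen by their titles: 3 arrays of lithium-treated preadipocytes, called lithium 1, 2 and 3, and 3 arrays of lithium-treated preadipocytes that were then induced with MDI, called lithium plus MDI 1, 2 and 3. All 6 were 3T3-L1 cells, a mouse line of fibroblast-like preadipocytes that can become fat cells in culture, and both groups were given lithium chloride at 25 mM. MDI is a mixture of 3-isobutyl-1-methylxanthine, dexamethasone and insulin. Per the labels' protocols it was applied to confluent cells for 3 days in the model without lithium, followed by insulin alone for 2 days and by plain medium for 2 days, ending at day 7. For the lithium cells the labels give no schedule and no end day, and they do not say whether lithium stayed in the medium during MDI. Days in culture and MDI therefore cannot be told apart in this comparison. Separate cultures are not stated for the 3 samples of a group, so a p-value here speaks of the spread among these samples alone, part or all of which may be technical. The other 6 arrays were untreated preadipocytes (n = 3) and cells induced with MDI without lithium (n = 3), and they entered only the choice of probes for scaling and testing, the estimate of the spread and the test of whether the MDI difference depended on lithium.

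A microRNA (miRNA) is a short RNA that pairs with messenger RNAs mainly through its seed, bases 2 to 8, and lowers their translation and stability. Lithium inhibits the kinase GSK3, which lets beta-catenin accumulate as WNT signalling does, and active WNT signalling holds preadipocytes back from becoming fat cells. By the submitters' design, the lithium plus MDI cells ask whether MDI can still drive differentiation when WNT signalling is switched on. Among miRNAs studied in fat cells, the miR-27 and miR-130 families repress the messenger RNA of Pparg, the master regulator of fat cell differentiation, miR-143 and miR-103 have been described as promoting fat cell formation, and miR-193b and miR-365 have been linked to brown fat.

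The sequences below are those on which the comparison turned. They show 2 pairs of miRNAs with 1 seed whose members differed in the same direction between the groups, 2 pairs with 1 seed whose members did not, and 3 miRNAs that hold a run of alternating C and A. They are mature strands from RefSeq (GRCm38.p6), 5′ to 3′, with the seed in capitals.
miR-301a: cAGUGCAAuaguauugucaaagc
miR-130a: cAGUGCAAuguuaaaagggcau
miR-27a: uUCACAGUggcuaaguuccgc
miR-27b: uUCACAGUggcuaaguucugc
miR-193: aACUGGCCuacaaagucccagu
miR-193b: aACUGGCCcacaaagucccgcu
miR-322: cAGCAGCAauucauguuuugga
miR-15b: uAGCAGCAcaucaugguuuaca
miR-342-3p: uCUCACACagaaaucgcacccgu
miR-466i: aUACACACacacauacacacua
miR-467f: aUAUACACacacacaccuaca

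In GRCm38.p6, miR-301a lies at chr11:87113054-87113076 on the plus strand, within the span of Ska2, and miR-342-3p at chr12:108658680-108658702 on the plus strand, within the span of Evl. The miR-27b sequence is at chr13:63300760-63300780 on the plus strand within Aopep, and that of miR-27a at chr8:84208727-84208747 on the plus strand, outside the span of any gene in the table used. On the minus strand of chromosome X, miR-322 is at chrX:53054306-53054327, within the span of C430049B03Rik. The matched miR-466i sequence is at chr13:17747552-17747573 on the plus strand within Cdk13, and that of miR-467f at chr11:69635419-69635439 on the minus strand within Fxr2. The gene table used here gives spans without exons, so exon, intron or UTR is not stated. The miRNA names are those of the array, and the current names of 133 of the 157 tested miRNAs matched a RefSeq sequence. Aligned from the 5′ end without gaps, miR-27a and miR-27b differ at 1 base, miR-193 and miR-193b at 3, miR-322 and miR-15b at 6 of 22, and miR-301a and miR-130a at 10.

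Neither group was uniform, and this bears on every value that follows. Over the 157 tested miRNAs, the Pearson correlation of normalized log2 signals was 0.994 between lithium 2 and lithium 3 and 0.978 between lithium plus MDI 1 and 2. Lithium 1 correlated at 0.942 on average with its own group, at 0.945 with lithium plus MDI and at 0.960 with the MDI arrays. Lithium plus MDI 3 correlated at 0.924 on average with its own group and at 0.954 with lithium, and highest, at 0.965, with untreated preadipocytes. Its signal was nearer to the mean of lithium 2 and 3 than to that of lithium plus MDI 1 and 2 for 89 of the 157 miRNAs (56.7%), and for lithium 1 the signal was nearer to lithium plus MDI 1 and 2 for 70 (44.6%). Differences are therefore given with all arrays. For many, but not all, of the leading miRNAs, and for those that moved by over 1.5 times, they are also given without 3 arrays. These are the 3 arrays of the series that correlated least with their groups, namely lithium 1, lithium plus MDI 3 and preadipocytes 3. These arrays were chosen from the same values, which narrows the spread within groups, so the p-values without them are descriptions.

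**Figure D1:**
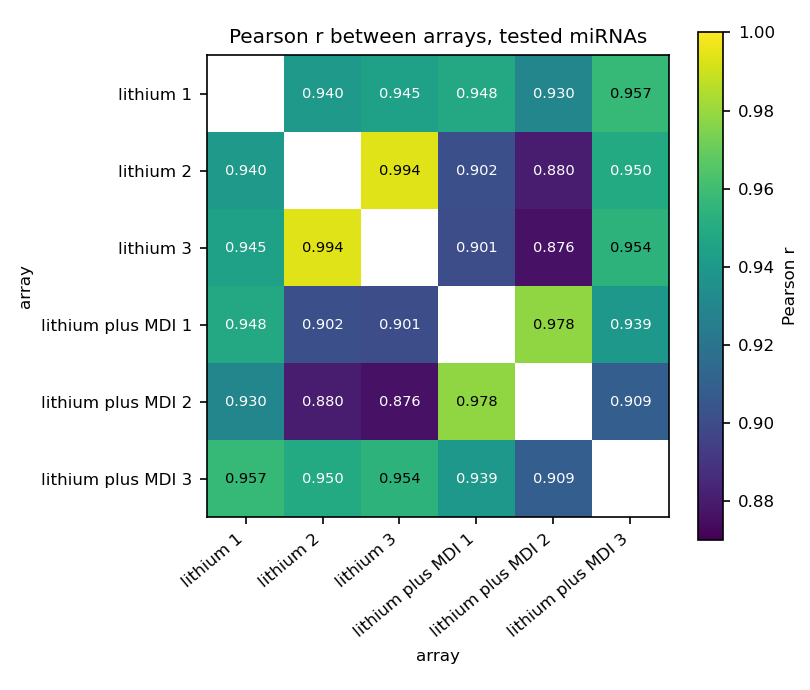
Pearson r of normalized log2 signal over the 157 tested miRNAs for each pair of the 6 arrays (rows and columns are arrays, the colour scale is r). Lithium 2 and 3 form one close pair (0.994) and lithium plus MDI 1 and 2 another (0.978), while lithium 1 and lithium plus MDI 3 lie between the pairs.

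Measures of signal over background did not separate the groups. The lithium arrays detected 149, 166 and 157 mouse miRNAs and the lithium plus MDI arrays 133, 166 and 166, a difference with p = 1.0 (exact permutation test, two-sided, n = 3 and 3, where the smallest possible p is 0.1). The share of spots well above background was 22.9% ± 1.2 (SD, n = 3) for lithium and 22.5% ± 1.8 for lithium plus MDI (exact permutation p = 0.7). All 6 arrays lay on 1 slide, in 2 rows: lithium 1 and 2 in the first row, and lithium 3 with the 3 lithium plus MDI arrays in the second. Of 32 miRNAs that mark epithelium, muscle, blood, neural tissue, liver or endothelium, 30 were detected on none of the 6 arrays. The exceptions were miR-205, an epithelial miRNA detected on 2 lithium arrays, and miR-128, a miRNA abundant in neurons that was detected on all 3 lithium plus MDI arrays and on no lithium array. The log2 of the summed marker signal ranged from 0.03 to 0.25 for lithium and from 0.05 to 0.10 for lithium plus MDI. Nearly all marker values in these sums were at the floor of log2 -4.97, the lowest value kept. The sums therefore mostly reflect the floor and say little about other cells or a likeness of the groups.

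The arrays measured whole cultures, so fewer cells holding a miRNA and less of it per cell cannot be told apart, and they carry no messenger RNA that marks preadipocytes or fat cells, so how far the cells had differentiated was not measured. No miRNA passed the adjusted threshold of 0.05 when all 12 arrays set the spread (limma, Benjamini-Hochberg over 157 miRNAs, smallest adjusted p = 0.0543, percent called 0.0). At an unadjusted p under 0.05 there were 48 miRNAs (30.6%), 37 of them higher (23.6%) and 11 lower (7.01%) in lithium plus MDI. The 3 arrays of the one group did not overlap those of the other for 53 miRNAs (33.8%), with 41 higher (26.1%) and 12 lower (7.64%) in lithium plus MDI. Most differences were small and positive: 112 miRNAs (71.3%) had a higher mean in lithium plus MDI, and the median log2 difference was 0.39 against a median standard error (SE) of 0.335. That median depends on the scaling, and it was 0.07 after quantile normalization, 0.08 in the authors' deposited value table, 0.31 with no scaling and 0.20 when all mouse probes entered the percentile. The 37 to 11 split became 18 to 17 after quantile normalization, 16 to 15 with the values of the authors' deposited table and 13 to 11 with the percentile over all mouse probes. A difference is therefore best read against the median of all tested miRNAs. Most differences below are printed without subtracting that median of 0.39, and the value against it is given only for some. For miR-185, as an example, the difference was 0.81 and lay 0.42 above the median.

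Fitted on the 8 arrays of slide 2, where both groups and 2 MDI arrays lay, 15 miRNAs passed the threshold (9.55%). The 7 higher ones (4.46%) were miR-301a, miR-27b, miR-342-3p, miR-143, miR-345-5p, miR-298 and miR-532-5p. Lower were 8 (5.1%), miR-466f-3p, miR-466i, miR-193b, miR-322, miR-574-3p, miR-467f, miR-1196 and miR-466g. Of all tested miRNAs, 16 passed the detection filter through the lithium arrays only and 3 through the lithium plus MDI arrays only. The filter thus favours dim miRNAs that are lower, and the count of lower ones is not read as a result. In all 15 the arrays of the groups did not overlap. With slide as a block on all 12 arrays 10 passed (6.37%), 4 higher (2.55%) and 6 lower (3.82%), all of them among these 15. Only the MDI group lay on both slides, so MDI 1 alone sets the slide term. For this comparison the fit therefore equals leaving out MDI 1. It takes no slide effect out of the difference, since the 6 arrays lay on 1 slide. On the 6 arrays alone only miR-301a passed (0.637%), and with the array row as a block on slide 2 none did. Of the groups on slide 2 only lithium lay in both rows. The row fit therefore sets the 3 lithium plus MDI arrays against lithium 3 alone. Row and group are barely separable there, and no conclusion is drawn from that fit. Without the 3 arrays named above 88 passed (56.1%), 63 higher (40.1%) and 25 lower (15.9%), among them 14 of the 15 called on slide 2. After normexp, which adds an offset to every signal, the differences of 12 of those 15 were over 1.5 times smaller, and none turned sign. Among all 157 tested miRNAs 88 were over 1.5 times smaller and only 3 turned sign, so the kept signs do not mark these 15.

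**Figure D2:**
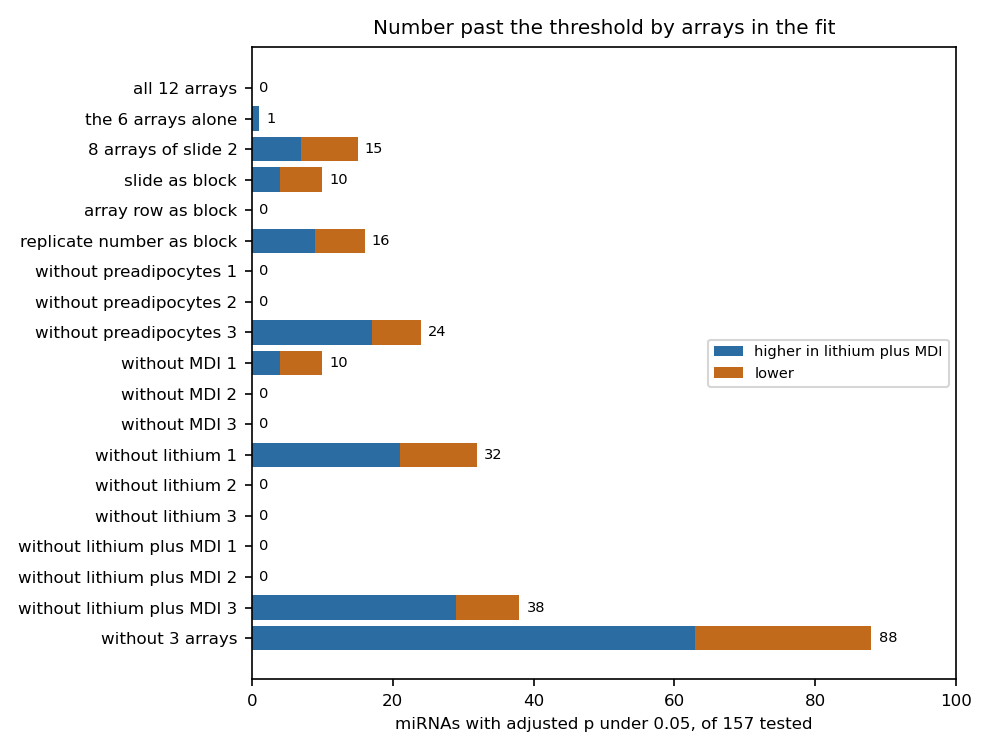
Number of the 157 tested miRNAs with an adjusted p under 0.05 in lithium plus MDI against lithium (bar length, blue higher and orange lower in lithium plus MDI), by the arrays or block in the limma fit. The count is 0 with all 12 arrays, 32 without lithium 1, 38 without lithium plus MDI 3, 24 without preadipocytes 3 and 88 without those 3 arrays.

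Of the 15 miRNAs called on slide 2, miR-301a, a member of the miR-130 family of Pparg repressors, had the largest difference. Its normalized log2 signal was -2.60, -2.88 and -3.07 on the lithium arrays and -1.06, -1.28 and -0.76 on the lithium plus MDI arrays. All 3 lithium plus MDI arrays lay above all 3 lithium arrays, including the array that stood apart in each group, and lithium plus MDI 3 was the highest of all. The log2 difference was 1.81 (SE 0.49), a 3.51-fold higher signal, with a limma adjusted p of 0.0728 on 12 arrays, 0.0217 on the 6 arrays alone and 0.00828 on slide 2. Leaving out the 3 arrays gave 1.80, and normexp gave 1.12. A dimmer probe for miR-301a, detected on all 6 arrays, gave a difference of 1.71. Its relative miR-130a, with the same seed (sequences above), measured 1.73, 1.69 and 1.63 on lithium arrays and 1.68, 1.46 and 1.88 on lithium plus MDI arrays. The lithium values lay within the range of the lithium plus MDI values, and the difference was -0.01 (SE 0.24), which is 0.40 below the median of all tested miRNAs. The sign of that small difference turned under several alternatives, with values up to 0.10.

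The smallest p among the higher miRNAs belonged to miR-342-3p, which sits inside the gene Evl. Its signal was -4.29, -4.53 and -4.57 in lithium and -2.37, -2.48 and -3.62 in lithium plus MDI. The lithium values lay near the detection floor of -4.97, and lithium plus MDI 3 fell between the other lithium plus MDI arrays and the lithium arrays without overlapping them. The difference was 1.64 (SE 0.38, limma adjusted p = 0.0543 on 12 arrays and 0.0286 on slide 2), 2.12 without the 3 arrays and 0.59 after normexp.

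The miR-23, miR-27 and miR-24 miRNAs are made from paired clusters in the genome, miR-23a with miR-27a and miR-24 on chromosome 8, and miR-23b with miR-27b and miR-24 on chromosome 13. Of the 6 tested members all had a higher mean in lithium plus MDI, with 5 of the 6 free of overlap against 26.1% of all tested miRNAs, and the median difference was 1.02 against 0.39. No scaling turned the median of the list, which ranged down to 0.67 after quantile normalization. For miR-27b, the signal was -1.29, -2.36 and -2.32 in lithium and -0.15, -0.29 and -0.82 in lithium plus MDI. Lithium 1 lay closer to the lithium plus MDI arrays than its group did, though still below them. The difference was 1.57 (SE 0.54, limma adjusted p = 0.0849 on 12 arrays and 0.0286 on slide 2), and 2.12 without the 3 arrays. For miR-27a, 1 base away from miR-27b, the signal was 1.77, 1.55 and 1.55 against 2.38, 2.04 and 2.50, again without overlap and with a difference of 0.68 (SE 0.23, limma adjusted p = 0.0849), or 0.27 after quantile normalization. Whether the differences of these 2 probes differ from each other was not tested, and probes for sequences 1 base apart may each take up some of the other RNA.

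In the chromosome 8 cluster, miR-23a measured 2.62, 1.72 and 1.76 in lithium and 3.21, 3.25 and 2.68 in lithium plus MDI. The groups were apart by the narrow gap between lithium 1 and lithium plus MDI 3. The difference was 1.01 (SE 0.33, limma adjusted p = 0.0788), 1.49 without the 3 arrays and 0.67 after quantile normalization. A similar difference of 1.03 (SE 0.36) was found for miR-24, made by both clusters, and one of 0.83 (SE 0.33) for its passenger strand miR-24-2*, or 0.23 after normexp. The groups of miR-24-2* were apart only narrowly and near the floor, by lithium 3 at -4.63 against lithium plus MDI 2 at -4.60. Without the 3 arrays its difference was 0.55. The overlapping member was miR-23b, at 0.18, -1.54 and -1.44 against 0.39, 0.29 and -0.16. There lithium 1 stood above lithium plus MDI 3, and the difference of 1.11 (SE 0.58) grew to 1.83 without the 3 arrays.

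**Figure D3:**
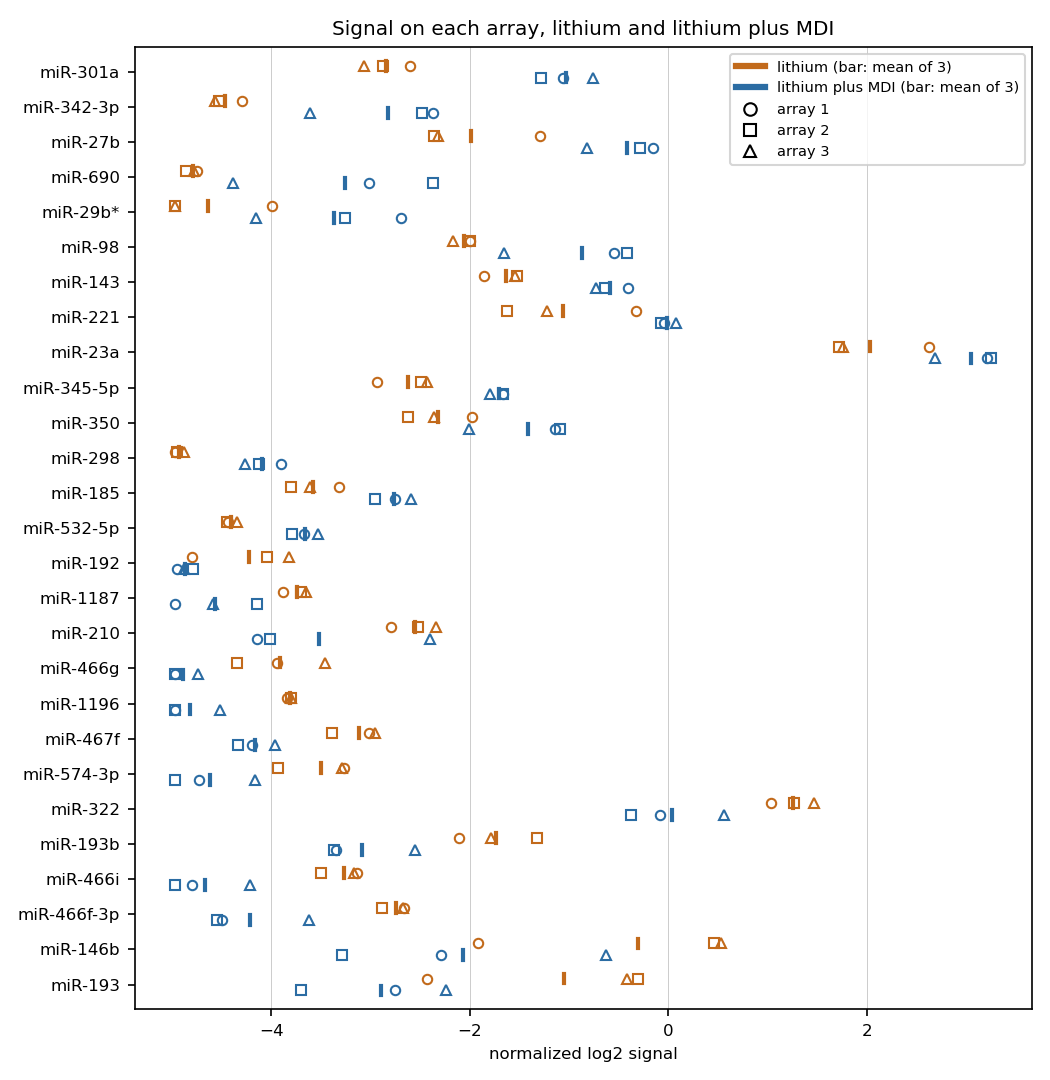
Normalized log2 signal on each of the 6 arrays (x axis) for the 12 miRNAs with the smallest p in each direction and the 3 further miRNAs past the threshold on slide 2. Symbols mark the array number, colours the group and bars the group means. Circles of the lithium group (array 1) and triangles of the lithium plus MDI group (array 3) often lie toward the other group, as for miR-193, miR-146b and miR-210, whereas miR-301a and miR-532-5p show no overlap and close arrays.

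MiR-143, described as promoting fat cell differentiation, measured -1.86, -1.52 and -1.54 in lithium and -0.41, -0.63 and -0.73 in lithium plus MDI. Its groups stood well apart, and lithium 1 was the lowest array. The difference was 1.05 (SE 0.30, limma adjusted p = 0.0728 on 12 arrays and 0.0286 on slide 2), and 1.01 without the 3 arrays. MiR-145, made from the same cluster and described as inhibiting fat cell differentiation, was near the floor at -4.96, -4.50 and -4.40 against -3.89, -3.75 and -4.61. Its groups overlapped through lithium plus MDI 3, and the difference was 0.53 (SE 0.29, limma adjusted p = 0.222).

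MiR-221 and miR-222, neighbours on chromosome X with 1 seed and known as repressors of the cell cycle inhibitor p27, both had a higher mean in lithium plus MDI. The signal of miR-221 was -0.33, -1.63 and -1.22 in lithium and -0.05, -0.07 and 0.08 in lithium plus MDI. The lithium plus MDI arrays were tight and lithium 1 lay just below them. The difference was 1.05 (SE 0.31, limma adjusted p = 0.0728) and 1.37 without the 3 arrays. For miR-222 the difference was 0.92 (SE 0.42) and 1.14 without the 3 arrays, and lithium 1 at -2.06 overlapped lithium plus MDI 2 at -2.30.

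The other miRNAs called higher on slide 2 were dim or of middling signal. MiR-532-5p was -4.44, -4.45 and -4.35 against -3.67, -3.79 and -3.53, a difference of 0.75 (SE 0.25) with closely grouped arrays on both sides. MiR-298 was detected on 2 lithium and 3 lithium plus MDI arrays, with a difference of 0.84 (SE 0.26). MiR-345-5p was -2.93, -2.49 and -2.44 against -1.66, -1.67 and -1.79, a difference of 0.91 (SE 0.41) and of 0.80 without the 3 arrays. These differences exceed the median of all tested miRNAs by 0.35 to 0.52.

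Further miRNAs among the 12 smallest p upward were miR-690 (difference 1.54, SE 0.47), miR-29b* (1.27, SE 0.41), miR-98 (1.18, SE 0.36), miR-350 (0.91, SE 0.30) and miR-185 (0.81, SE 0.25), each with a limma adjusted p between 0.0728 and 0.0788. MiR-185 measured -3.32, -3.80 and -3.61 against -2.75, -2.95 and -2.60, without overlap. MiR-690 measured -4.75, -4.86 and -4.78 against -3.01, -2.37 and -4.38, so its difference rests mostly on lithium plus MDI 1 and 2. Without the 3 arrays the difference was 2.13 for miR-690, 1.99 for miR-29b* and 1.37 for miR-350. The highest value of miR-29b* in lithium, -3.99 on lithium 1, exceeded the lowest in lithium plus MDI, -4.16 on lithium plus MDI 3. MiR-128 gave a bound rather than a value, since it was not well above background on any lithium array. With the scaling used here it was at least 1.84-fold higher in lithium plus MDI, where it measured -3.79, -3.82 and -4.55 (limma adjusted p = 0.130). The bound holds for this scaling only. The log2 difference was 0.92 with it, 0.67 after quantile normalization and 0.26 after normexp.

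**Figure D4:**
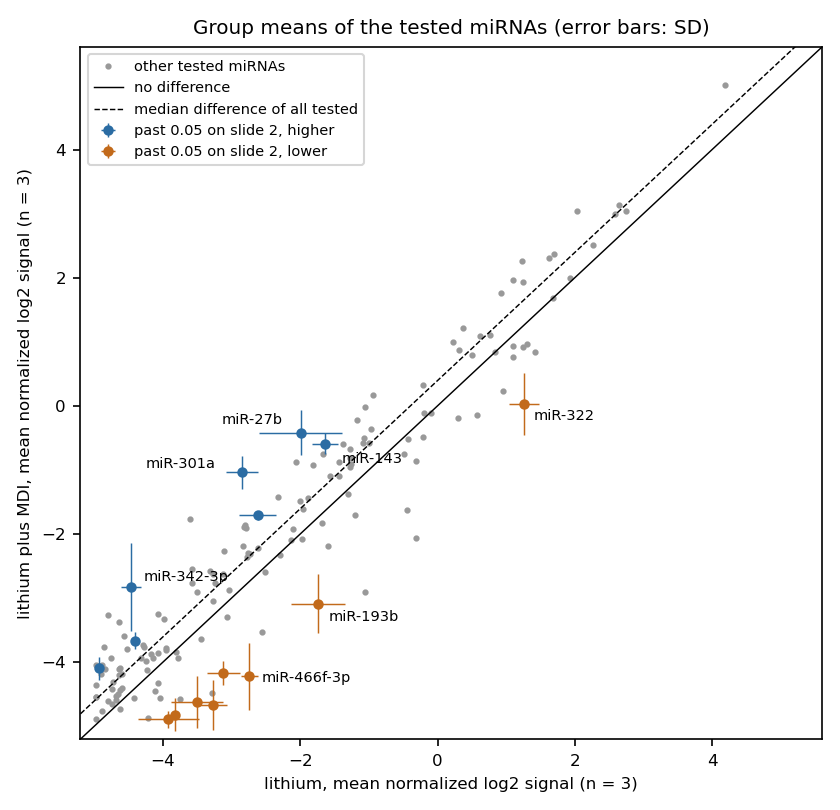
Mean normalized log2 signal in lithium (x axis) and lithium plus MDI (y axis) for the 157 tested miRNAs, n = 3 arrays each, with SD bars on the 15 miRNAs past the threshold on slide 2. Of the 157 points, 112 lie above the line of no difference, and the dashed line marks the median difference of 0.39. All of the 8 lower miRNAs (orange) except miR-322 and miR-193b have lithium plus MDI means of -4.17 or lower, near the floor.

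Among the lower miRNAs, those of the miR-466, miR-467 and miR-669 repeat family, many of which are encoded in an intron of Sfmbt2, had the smallest p. The array held 39 of them, 10 were detected on any of the 6 arrays and 5 were tested, 3 of these only because all lithium arrays detected them, so the filter favours this direction and their count supports nothing. MiR-466f-3p measured -2.66, -2.88 and -2.68 in lithium and -4.49, -4.55 and -3.62 in lithium plus MDI. The lithium arrays were close together and all 3 lithium plus MDI arrays lay below them, lithium plus MDI 3 least far. The difference was -1.48 (SE 0.35, limma adjusted p = 0.0543 on 12 arrays and 0.0286 on slide 2), and -1.74 without the 3 arrays. MiR-466i was detected on all 3 lithium arrays, at -3.14, -3.50 and -3.16, and on 1 lithium plus MDI array, with values of -4.80, -4.97 and -4.22. Its difference was -1.40 (SE 0.31, limma adjusted p = 0.0543 on 12 arrays and 0.0286 on slide 2), and -1.56 without the 3 arrays. Normexp gave -0.51 for miR-466f-3p and -0.37 for miR-466i. The sequences matched for miR-466i and miR-467f lie within Cdk13 and Fxr2, not Sfmbt2. No position is given here for the other tested members, so these signals were not placed at Sfmbt2.

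MiR-467f was -3.01, -3.39 and -2.96 against -4.20, -4.33 and -3.96, a difference of -1.04 (SE 0.31). MiR-466g had a difference of -0.97 (SE 0.25) and sat at the floor on 2 lithium plus MDI arrays. The member that did not share this direction was miR-669f, chosen here after its value was seen, with a difference of 0.21, overlapping arrays and a sign that turned in the authors' deposited table and with the row block. After normexp background correction the median of the 5 was -0.34 instead of -1.05, and the fit then gave no small adjusted p for any miRNA (smallest 0.990). MiR-1196 (-1.0, SE 0.36), miR-574-3p (-1.12, SE 0.31) and miR-1187 (-0.82, SE 0.27), other dim miRNAs, were likewise measured on all lithium arrays and on 1 or 2 lithium plus MDI arrays.

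Several of these dim miRNAs hold short repeats of C and A or of U and G, and the motif was taken from them after their values were seen. Searched in the 133 tested miRNAs with a sequence, CACACA was found in 5 and its reverse complement UGUGUG in 3, and no miRNA held both. Of the 8, let-7b, miR-1187, miR-574-3p, miR-466i and miR-467f had a lower mean in lithium plus MDI and 3 a higher one (miR-342-3p, miR-34c* and miR-574-5p). Of the 1674 mature mouse sequences from RefSeq, 40 held either motif (2.39%). Since dim members were tested through the lithium arrays that detected them, no share is read from these counts. Thus miR-342-3p and miR-466i, which both hold CACACA, lay at opposite ends of the comparison, and miR-574-5p had a difference of 0.19 (SE 0.28). For miR-574-5p the sign turned after quantile normalization and in the authors' deposited table.

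MiR-193b and miR-193, which share a seed and differ at 3 bases, had the largest lower differences among miRNAs detected on all 6 arrays together with miR-146b. MiR-193b measured -2.11, -1.33 and -1.79 in lithium and -3.35, -3.37 and -2.56 in lithium plus MDI, without overlap. The difference was -1.35 (SE 0.38, limma adjusted p = 0.0728 on 12 arrays and 0.0445 on slide 2), -1.80 without the 3 arrays and -0.71 after normexp. MiR-193 measured -2.43, -0.31 and -0.42 against -2.76, -3.70 and -2.24. Lithium 1 fell inside the range of the lithium plus MDI arrays, and the difference of -1.85 (SE 0.57, limma adjusted p = 0.0728) became -2.87 without the 3 arrays. The other tested members of the brown fat list were miR-365 and miR-455. The miR-365 sequence lies near miR-193b on chromosome 16 and near miR-193 on chromosome 11, and its signal cannot tell these copies apart. Its difference was -0.59 (SE 0.33) with overlapping arrays. That of miR-455 was -0.03 with all arrays and -0.38 without the 3, with a sign that turned after normexp. All 4 tested members of the list had a lower mean, against 45 of all 157 tested miRNAs. The groups did not overlap for 1 of the 4, against 7.64% lower without overlap among all tested miRNAs. The list's median was -0.97 against 0.39 for all tested miRNAs. MiR-378, which is made from an intron of Ppargc1b, was detected on 2 lithium arrays and 1 lithium plus MDI array and was not tested.

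MiR-322, known as miR-424 in human cells, was also called lower on slide 2. It measured 1.03, 1.26 and 1.47 in lithium and -0.09, -0.38 and 0.56 in lithium plus MDI. Every lithium plus MDI array lay below every lithium array, by the least for lithium plus MDI 3. The difference was -1.22 (SE 0.72, limma adjusted p = 0.253 on 12 arrays, 0.0701 on the 6 arrays alone and 0.0445 on slide 2), and -1.60 without the 3 arrays. MiR-503, made from the same cluster, was -3.44, -3.13 and -3.29 against -4.93, -4.97 and -3.54, also without overlap, with a difference of -1.19 (SE 0.59). Of the 5 tested members of the cluster 4 had a lower mean, and 4 had passed the filter through the lithium arrays alone.

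MiR-322 carries the seed of the miR-15 and miR-16 family, and the 6 tested miRNAs with that seed ranged from -1.22 for miR-322 to 0.84 for miR-15b. MiR-15b was 0.94, 0.19 and -0.01 in lithium and 1.57, 1.62 and 0.45 in lithium plus MDI. It overlapped because lithium 1 lay above lithium plus MDI 3, and without the 3 arrays its difference grew to 1.50. MiR-16 was 0.30, 0.67 and 0.55 against 0.92, 0.79 and 0.69, a small difference of 0.30 (SE 0.24) that lies below the median of all tested miRNAs. The let-7 and miR-98 family gave a similar spread over 9 members of 1 seed, from -0.57 for let-7c to 1.18 for miR-98, with 7 higher and 2 lower and a median of 0.48. MiR-98 was -2.0, -2.0 and -2.17 in lithium and -0.55, -0.41 and -1.66 in lithium plus MDI, whereas let-7c was 0.74, 1.65 and 1.84 against 0.72, 0.45 and 1.34. Thus the groups were apart for miR-98 and overlapped for let-7c, whose difference was -1.16 without the 3 arrays.

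Grouped by what has been reported of them in fat cells, the lists were chosen with results of these arrays known and are given as descriptions. The list reported to inhibit fat cell differentiation had 10 tested members, 9 with a higher mean in lithium plus MDI and 6 of these at an unadjusted p under 0.05, against 23.6% of all tested miRNAs. Its median was 0.79 (0.40 after quantile normalization). Apart from miR-27a, miR-27b, miR-221 and miR-222 it holds miR-155, which restrains fat cell regulators of the C/EBP family, at -1.87, -2.18 and -1.40 against -0.72, -0.71 and -1.32. The arrays of miR-155 did not overlap, by a narrow gap between lithium 3 and lithium plus MDI 3, and the difference was 0.90 (SE 0.38, limma adjusted p = 0.144). MiR-31 was -0.48, -1.55 and -1.49 against -0.0041, -0.01 and -0.65, with lithium 1 overlapping and a difference of 0.95 (SE 0.41), or 1.51 without the 3 arrays.

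The list reported to promote fat cell differentiation had 13 tested members, 5 higher and 8 lower, with a median of -0.10. Its differences ran from -1.76 for miR-146b to 1.05 for miR-143, and 3 members had an unadjusted p under 0.05, a share below the 30.6% of all tested miRNAs. Within it, miR-21, whose probe was among the 5 brightest on these arrays, measured 4.72, 3.69 and 4.14 in lithium and 5.35, 5.00 and 4.67 in lithium plus MDI. Only lithium 1 overlapped, at a level just above lithium plus MDI 3. The difference was 0.82 (SE 0.32, limma adjusted p = 0.123), and 1.26 without the 3 arrays. Quantile normalization gives probes of equal rank the same value on every array. Its difference of 0.0 for miR-21, the brightest tested miRNA, follows from that rule, and nothing is read from it. Beside miR-23a above, the other brightest probes showed differences of 0.29 for miR-199a-3p, 0.49 for miR-125b-5p and 0.41 for let-7f, or 0.52, 1.01 and 0.71 without the 3 arrays. The signs of these 3 turned after quantile normalization and in the authors' deposited table. The list reported to act on WNT signalling had 8 tested members, 6 higher and 2 lower, with a median of 0.53. It overlaps the other lists in miR-27a and miR-148a.

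The miRNAs that the study itself followed in later experiments, miR-148a, miR-210 and miR-322, were chosen on these samples, so their direction here is not independent evidence. All 3 tested members had a lower mean in lithium plus MDI, and miR-194, the other member, was detected on none of the 6 arrays. MiR-210, the miRNA of the hypoxia response, was -2.80, -2.52 and -2.34 in lithium and -4.14, -4.02 and -2.40 in lithium plus MDI. Lithium plus MDI 3 lay among the lithium arrays, and the difference of -0.97 (SE 0.44, limma adjusted p = 0.153) became -1.65 without the 3 arrays. MiR-148a was -2.33, -0.64 and -0.61 against -1.71, -1.96 and -1.45, with lithium 1 below every lithium plus MDI array, and a difference of -0.51 (SE 0.41), or -1.20 without the 3 arrays.

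**Figure D5:**
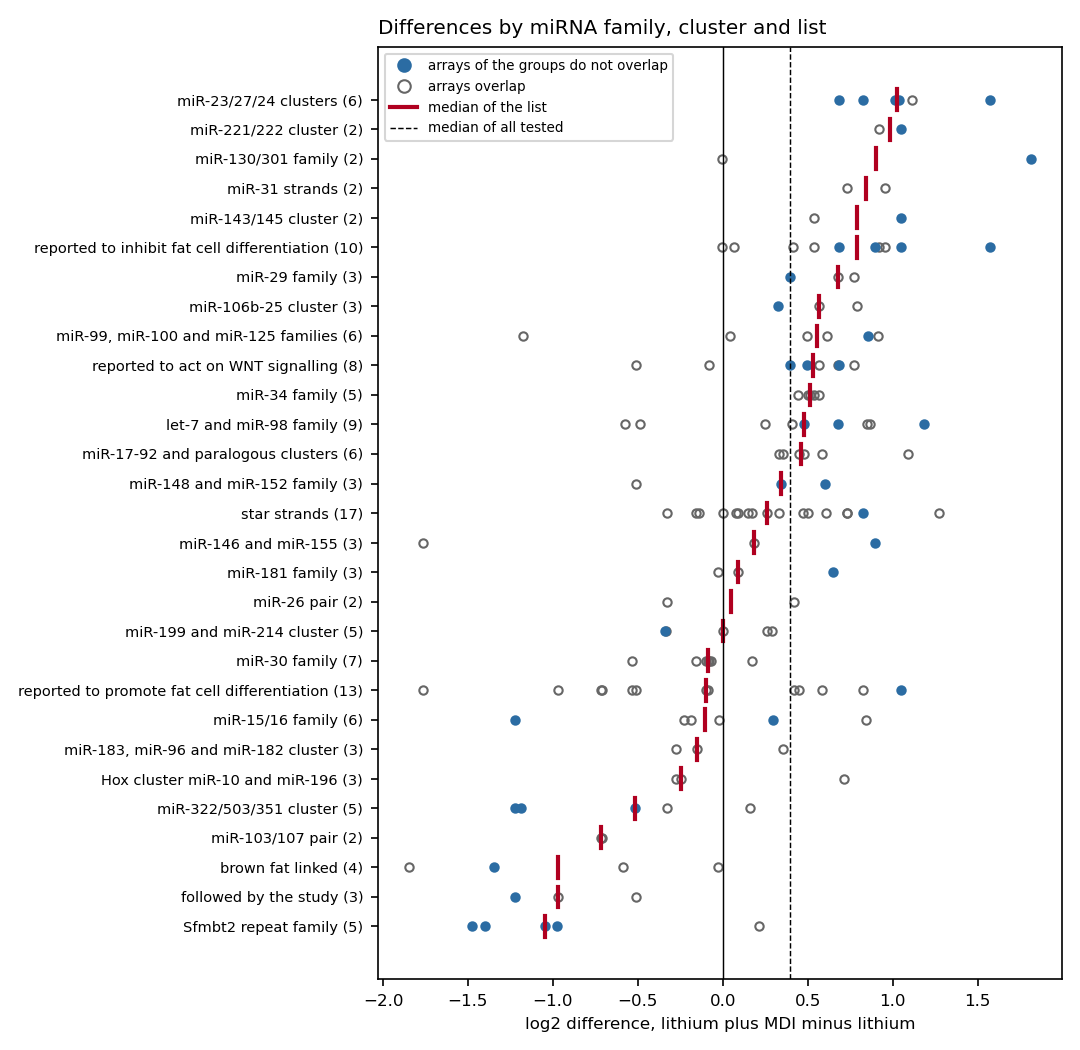
Log2 difference of each tested member (points) by miRNA family, cluster or list, with the number tested in parentheses, filled where the arrays of the groups do not overlap. Red bars are list medians and the dashed line is the median of all 157 tested miRNAs (0.39). The miR-23/27/24 clusters lie highest at a median of 1.02. The list labelled Sfmbt2 repeat family lies lowest at -1.05, though its tested members were not placed at Sfmbt2. Where the scaling turned the sign of a median near 0 (miR-199 with miR-214, the miR-26 pair, miR-148 with miR-152, and miR-146 with miR-155) no direction is read.

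For another set of miRNAs the arrays that stood apart decided the value. MiR-103 and miR-107, which share a seed, differ at 1 base and act on insulin sensitivity, are an example. MiR-103 was -0.58, 1.92 and 1.53 in lithium and 0.12, 0.15 and 0.44 in lithium plus MDI, so lithium 1 lay below all lithium plus MDI arrays while lithium 2 and 3 lay above them. The difference was -0.72 (SE 0.49, limma adjusted p = 0.312), and -1.59 without the 3 arrays. MiR-107 gave -0.71 (SE 0.42) and -1.44. MiR-99a was -1.58, 0.12 and 0.13 against -2.20, -2.53 and -0.15, with lithium plus MDI 3 close to lithium 2 and 3. Its difference of -1.18 (SE 0.67) became -2.49 without the 3 arrays. The seed relative of miR-99a, miR-99b, went the other way, at 0.92 (SE 0.41) with all arrays and 1.60 without the 3. The largest upward mean difference of all tested miRNAs, 1.84 (SE 0.80, limma adjusted p = 0.147), was that of miR-7a, chosen here after its value was seen. It measured -3.47, -3.83 and -3.51 in lithium and -0.71, -0.68 and -3.93 in lithium plus MDI, so lithium plus MDI 3 was the lowest of the 6 arrays, and without the 3 arrays the difference was 2.98.

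MiR-146b, a miRNA induced by inflammatory signalling, had the second largest lower difference and the largest SE of the miRNAs named here. It was -1.92, 0.46 and 0.53 in lithium and -2.29, -3.29 and -0.62 in lithium plus MDI. Lithium 1 and lithium plus MDI 3 each lay toward the other group and crossed, and the difference was -1.76 (SE 0.83, limma adjusted p = 0.161) with all arrays and -3.29 without the 3. MiR-92a, of the growth-linked miR-17-92 cluster, was -0.61, -1.20 and -1.42 against 0.23, 0.51 and -2.23. There lithium plus MDI 3 was the lowest of the 6 arrays, and the difference of 0.58 (SE 0.57) became 1.68 without the 3 arrays. MiR-18a of the same cluster was detected on 1 lithium and 2 lithium plus MDI arrays, with a difference of 1.09 (SE 0.40), or 1.69 without the 3 arrays, and lithium plus MDI 3 at the floor. All 6 tested members of the miR-17-92 and related clusters had a higher mean, against 71.3% of all tested miRNAs. None was without overlap, against 26.1% higher without overlap among all tested miRNAs. The median of the list was 0.46 against 0.39 for all tested miRNAs. With the values of the authors' deposited table, miR-20a of this list had a difference of -0.01.

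Whether the MDI difference depended on lithium was tested as an interaction, the MDI difference under lithium minus the MDI difference without it. No miRNA passed (limma, Benjamini-Hochberg, smallest adjusted p = 0.0612, percent called 0.0), and 35 had an unadjusted p under 0.05 (22.3%), 24 above 0 (15.3%) and 11 below (7.01%). The preadipocyte arrays and 1 MDI array lay on another slide than the 6 lithium arrays, so for these the slide enters the interaction. With slide as a block, the MDI difference without lithium rests on MDI 1 alone. That fit cannot separate slide from array, and no conclusion is drawn from it. The smallest p belonged to miR-181b, which averaged -1.29 in untreated preadipocytes and -3.05 after MDI alone but -2.83 in lithium and -2.18 in lithium plus MDI. Its interaction was 2.41 (SE 0.52, limma adjusted p = 0.0612). The interaction of miR-466i was -1.81 (SE 0.43), that of miR-467f -1.79 (SE 0.44) and that of miR-466f-3p -1.98 (SE 0.50), each with the same adjusted p. MiR-466f-3p averaged -4.75 in untreated preadipocytes and -4.25 after MDI alone, -2.74 under lithium and -4.22 under lithium with MDI, so its level in lithium plus MDI cells was near that of MDI cells and the lithium cells were the high group. For miR-185 the interaction was 1.34 (SE 0.35), and for miR-301a it was 2.36 (SE 0.69, limma adjusted p = 0.0797). Without preadipocytes 3 the interaction count was 26, and without all 3 arrays it was 69.

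Most dimmer probes gave the direction of the brightest probe that represents each miRNA. Of 155 dimmer probes detected on at least 1 of the 6 arrays, 147 had the sign of the brightest. Dimmer probes gave 1.59 for miR-27b, 1.61 for miR-342-3p and -1.15 for miR-193b, each close to the value of the brightest probe. For miR-193 the dimmer probe gave -1.14 and was detected on 2 lithium arrays and 1 lithium plus MDI array.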

How the data were processed

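Agilent mouse miRNA arrays of 1 colour (Cy3) were made from 0.5 ug of total RNA per sample, per the labels' protocols. The deposited intensity of each spot was the processed, background-subtracted signal of Agilent Feature Extraction, version 10.5.1.1 per the file headers and 9.5.3 per the submitters' processing notes; which applies is not settled. The authors' deposited log2 value table (r at least 0.996 per column with log2 total signal; column medians 0.00175 to 0.0958; its scaling, centring and treatment of background are unknown) was used as an alternative.

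Here outlier spots were left out, spots of a probe averaged and each array scaled to the 75th percentile of the 181 mouse probes that all 12 arrays detected. The floor was at the 5th percentile of detected values (log2 -4.97, which held 7.01% of the tested values on the 6 arrays), then log2 was taken. A probe was detected when most kept spots were well above background, and the brightest probe stood for a miRNA. No spot was saturated. Of 611 miRNAs, 157 were tested, those that every array of 1 or more of the 4 groups detected, with limma 3.58.1 in R 4.3.3 (two-sided moderated test, 4 group means, no block, Benjamini-Hochberg). The number of arrays limits the precision. On simulated data with normal noise drawn separately for each miRNA and array, the fit called 47.0% of log2 changes of 1, 92.5% of 2 and 96.5% of 3. The simulation leaves out that lithium 1 and lithium plus MDI 3 stood apart over many miRNAs at once. These shares are therefore not the power of the comparison made here. Alternatives changed the scaling, background correction, filter, probe rule, floor, arrays in the fit, slide, row and replicate blocks and weights. Figures were drawn with matplotlib 3.10.9.

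Members and lists were chosen with earlier results of these data known. Named were the 12 miRNAs with the smallest p in each direction, those past the threshold on the 6 arrays or on slide 2, list members with the smallest p or in lists of up to 9 tested, the 5 brightest, and up to 5 for the interaction. MiR-7a, miR-669f and the interaction of miR-301a were added after their values were seen. Lists not described in the report: the tested members of the Hox list with miR-10 and miR-196 had a median log2 difference of -0.24, the list of miR-183, miR-96 and miR-182 one of -0.15, miR-181 0.09, miR-30 -0.09, miR-29 0.68, miR-34 0.51, miR-106b-25 0.57, star strands 0.26, and miR-494, the tested Dlk1-Dio3 member, 0.89.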

Additional observations from a re-analysis of the deposited data

Results flagged for a closer look

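The arrays also carry probes for 39 viral miRNAs, which no comparison used. On lithium plus MDI 2 the scanner called mcmv-miR-m88-1 well above background at a brightest-probe signal of 69.9 and mcmv-miR-M87-1 at 41.8, in the scanner's linear units before scaling. No lithium array detected either, with signals of at most 5.02 and 3.69. On lithium plus MDI 1 and 3 the signals of mcmv-miR-m88-1 were 3.54 and 8.36, and those of mcmv-miR-M87-1 1.76 and 0.737. Among the other 6 arrays mcmv-miR-m88-1 was detected on MDI 3, at 27.6. Detection of a viral probe was not particular to these arrays. The probe for mghv-miR-M1-2 was detected on every array, at 22.4 to 32.4, a range that includes the MDI 3 signal. That for mcmv-miR-M23-1-5p was detected on lithium 2, lithium plus MDI 3 and preadipocytes 3, at 13.2, 15.1 and 17.3. The source of these signals was not tested.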

How the results depend on the processing

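The number of miRNAs past the threshold between lithium plus MDI and lithium was 0 with all 12 arrays and also with the percentile over all mouse probes, with normexp, with no detection filter, with only miRNAs detected on all 12 arrays and with the array row as a block. It was 1 with no scaling, with the authors' value table and on the 6 arrays alone, 2 with the mean over probes, 3 with miRNAs detected on all 3 lithium or lithium plus MDI arrays and with slide as a random block, 4 with the percentile over probes detected on the 6 arrays, with the floor at the 1st percentile and with a variance trend, 7 with quantile normalization, 10 with slide as a block, 15 on slide 2, 88 without the 3 arrays least like their group, 105 on the 4 arrays left of the 6, and 119 with array weights. Leaving out 1 array at a time gave 0 to 38: 38 without lithium plus MDI 3, 32 without lithium 1, 24 without preadipocytes 3, 10 without MDI 1 and 0 for each other array. For this comparison the fit without MDI 1 is the same as that with slide as a block. The replicate block gave 16, and 18 on the 6 arrays alone; deviations of same-numbered arrays correlated at 0.28, -0.16 and 0.40, so the numbers were not taken to pair samples. The cause of these changes was not tested. For the interaction the count was 0 with all arrays and 2 with quantile normalization, 20 with the percentile over all mouse probes, 61 with no scaling, 5 with the percentile over probes of the 6 arrays and with the authors' table, 8 with the mean over probes, 4 with slide as a block, as a random block and with the replicate block, 82 with array weights, 69 without the 3 arrays, and 0 to 26 leaving out 1 array (26 without preadipocytes 3, 3 without MDI 2, 2 without lithium plus MDI 3). Signs turned for miR-199a-3p (-0.36 after quantile normalization, -0.13 in the authors' table), miR-125b-5p (-0.035, -0.0068), let-7f (-0.33, -0.18) and miR-574-5p (-0.25, -0.24), for miR-130a (0.0050 with the mean over probes, 0.048 with the row block, and -0.11 to 0.10 leaving out 1 array), miR-669f (-0.025 in the authors' table, -0.015 with the row block), miR-20a (-0.011 in the authors' table) and miR-455 (0.058 after normexp, -0.48 to 0.38 leaving out 1 array). Fits without the 3 arrays, on 4 arrays, with a random slide block and with the replicate block on 6 arrays were added after seeing the data. Signal near the floor limits what can be said of dim miRNAs, among them 6 of the 8 called lower on slide 2.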
